A study of Mus musculus with 12 samples.

Results

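Lhx2, Lhx9, Lmx1b, Hand2, Twist1, Sall1, Sall3, Sall4, Prrx1 and Alx4 are 10 genes for transcription factors that pattern the distal limb and its axes. They were taken by gene symbol from a table of 54532 genes, and all 10 were found. The libraries were made from mouse limb buds on embryonic day E12.5. Conditional knockout limb buds (cKO, Mettl14 flox/flox) were compared with heterozygous controls (cHet, Mettl14 wt/flox), so that both genotypes carry a floxed allele. Mettl14 encodes an RNA-binding partner of the methyltransferase that places N6-methyladenosine (m6A) on mRNA. From cytoplasmic lysates, RNA was sequenced as such (input) and after a sucrose gradient that collects polysomes, the mRNAs loaded with several ribosomes. The groups were cKO input, cHet input, cKO polysome and cHet polysome, with 3 libraries each that the labels call biological replicates. The driver of the Cre recombinase, whether the controls carry it, which limbs were taken and how many embryos were pooled are not given in the sources used here.

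The limb bud grows under signals from the ectodermal ridge at its tip, from the posterior mesenchyme that makes Sonic hedgehog, and from dorsal and ventral ectoderm, and transcription factors of the mesenchyme read these signals. In mouse, the LIM-homeodomain factors Lhx2 and Lhx9 relay ridge signals to mesenchyme, and Lmx1b gives it a dorsal identity. The basic helix-loop-helix factors Hand2 and Twist1 bind DNA as dimers, and Hand2 acts in posterior mesenchyme upstream of Sonic hedgehog. The spalt-like zinc finger factors Sall1, Sall3 and Sall4 act in the hand and foot plate. Among the homeodomain factors of the paired type, Prrx1 marks early limb mesenchyme and is needed for normal skeletal elements, and Alx4 keeps hedgehog signalling to the posterior side.

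Lhx2, Hand2 and Twist1 had the profiles most like each other over the 12 libraries, and they were the factors enriched on polysomes. Their promoters are shown for that reason, from 250 bases before to 50 bases after the transcription start that RefSeq gives on GRCm38.p6, all on the plus strand. They lie at chr2:38339031-38339330 for Lhx2, chr8:57320733-57321032 for Hand2 and chr12:33957421-33957720 for Twist1. RefSeq gives 2 starts for Lhx2, and the one shown is where its gene model begins. Capitals mark 4 motifs searched on both strands: TATAAA (the TATA box), TAATTA (a core that many homeodomains bind), CANNTG (the E-box of helix-loop-helix factors) and GGGCGG (the GC box).
Lhx2: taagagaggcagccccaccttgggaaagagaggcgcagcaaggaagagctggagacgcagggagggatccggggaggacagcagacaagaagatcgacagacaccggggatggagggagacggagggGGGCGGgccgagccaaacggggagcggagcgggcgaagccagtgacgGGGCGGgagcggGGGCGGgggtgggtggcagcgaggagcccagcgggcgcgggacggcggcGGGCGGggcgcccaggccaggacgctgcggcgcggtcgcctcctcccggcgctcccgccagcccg
Hand2: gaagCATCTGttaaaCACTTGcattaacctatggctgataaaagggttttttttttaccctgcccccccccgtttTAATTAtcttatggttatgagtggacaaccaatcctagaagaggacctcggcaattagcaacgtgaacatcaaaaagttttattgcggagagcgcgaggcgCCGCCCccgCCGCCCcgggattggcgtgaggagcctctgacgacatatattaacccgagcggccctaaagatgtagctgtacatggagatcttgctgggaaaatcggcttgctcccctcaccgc
Twist1: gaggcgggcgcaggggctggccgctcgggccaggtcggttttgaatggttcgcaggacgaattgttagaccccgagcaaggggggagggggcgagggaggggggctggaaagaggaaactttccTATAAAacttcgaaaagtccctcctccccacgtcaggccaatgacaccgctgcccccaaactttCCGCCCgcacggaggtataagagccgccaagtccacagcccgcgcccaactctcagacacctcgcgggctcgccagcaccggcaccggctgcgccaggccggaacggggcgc
The Lhx2 promoter shown held 4 GC boxes and none of the other motifs, whereas the one at its other start (chr2:38351058-38351357) held 1 E-box and 0 GC boxes. The Hand2 promoter held 2 E-boxes, 2 GC boxes and 1 TAATTA, and the Twist1 promoter held 1 TATAAA and 1 GC box. The GC box was the motif found in all 3 promoters shown, which for Lhx2 depends on the start chosen. Of all 32851 promoters of the same length, 35.7% held GGGCGG, 72.3% CANNTG, 13.6% TATAAA and 5.29% TAATTA. CG dinucleotides numbered 34 in the Lhx2 promoter shown, 17 in that of Hand2 and 27 in that of Twist1, against a median of 7 over all promoters. A match describes these letters and is no evidence of binding. Of the 10 genes, 7 had a promoter entry.

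Levels are given as FPKM, fragments per kilobase of gene model scaled for depth. Depth ran from 10349912 to 30068823 assigned reads per library. In a principal component analysis of 13610 genes, the first component held 51.9% of the variance and parted polysome from input libraries. A pair of libraries stood apart. cKO input replicate 3 scored 62.96 on the second component, where the other input libraries scored −22.5 to −0.49, and cKO polysome replicate 1 scored 3.97 on the first, where the other polysome libraries scored 35.5 to 53.8. Mettl14 had 2.60, 3.32 and 1.26 FPKM in cKO input, against 4.09, 4.03 and 4.04 FPKM in cHet input. On polysomes it had 2.73, 2.81 and 3.29 FPKM in cKO and 2.83, 3.07 and 3.02 FPKM in cHet. The genotypes stood apart in input and overlapped on polysomes, and since the deleted exons are not given here, the value of the whole gene does not check the polysome labels. Limb mesenchyme markers summed to 482 to 587 FPKM in cKO input and 406 to 478 FPKM in cHet input, and none of them was at 0 in all libraries. Single markers were divided in input. Of the 8, 4 had a log2 difference of cKO minus cHet above 0 and 4 below (median 0.05). Without overlap, 2 stood above and 1 below, beside 29.3% of all genes apart in either direction.

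The 10 factors covered a wide range of levels. In every group Twist1 was the most abundant of them, and Sall3 and Sall4 were the least. Among 1451 protein-coding genes of transcription factors, Twist1 held rank 1 on the polysomes of both genotypes and rank 3 in the input of both. Hand2 held rank 16 in cKO input, 29 in cHet input, 13 on cKO polysomes and 21 on cHet polysomes. Lhx2 held rank 49 in cKO input, 103 in cHet input, 34 on cKO polysomes and 46 on cHet polysomes. In cKO input the order of mean levels was Twist1, Hand2, Lhx2, Prrx1, Lmx1b, Lhx9, Sall1, Alx4, Sall4 and Sall3. The neighbours whose ranges overlapped there were Lhx2 with Prrx1, Lmx1b with Lhx9, Lhx9 with Sall1, and Sall4 with Sall3. In cHet input Prrx1 stood above Lhx2 and Sall3 above Sall4, both without overlap, and Lhx2 overlapped Lmx1b. On polysomes of both genotypes Lhx2 stood above Prrx1 without overlap, Lhx9 overlapped Sall1 and Sall3 overlapped Sall4. Sall3 rested on 31 to 171 reads per library and Sall4 on 21 to 195, while Prrx1 rested on 6029 to 17647.

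**Figure D1:**
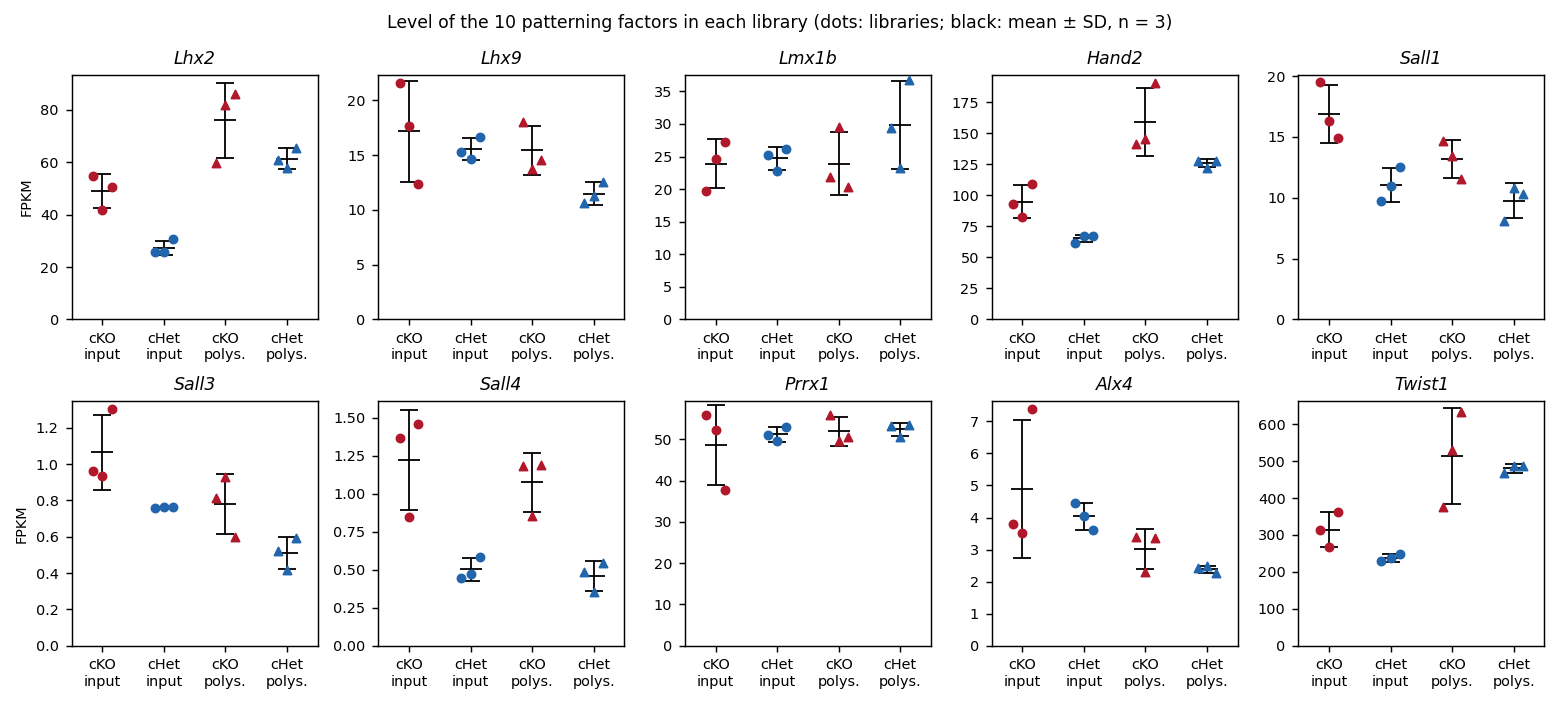
FPKM (vertical axes, starting at 0) of each of the 10 factors in the 12 libraries, with cKO in red and cHet in blue, input as circles and polysome as triangles, and black bars for the mean ± SD of 3 libraries. The cKO input circles lie above the cHet input circles without overlap for Lhx2, Hand2, Sall1, Sall3, Sall4 and Twist1, while those of Prrx1, Lhx9, Lmx1b and Alx4 overlap.

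The comparison of cKO with cHet input asked which factors differed in cytoplasmic RNA. Mean levels in cKO were above those in cHet by 79.3% for Lhx2, 45.5% for Hand2, 53.0% for Sall1 and 32.2% for Twist1, and by 40.0% for Sall3 and 144% for Sall4, which are low. The mean of Prrx1 differed by −5.00% and that of Lmx1b by −3.38%. By limma, 0 of the 8 factors tested passed an adjusted p of 0.05, beside 0% of all genes (0 of 12977). At an unadjusted p under 0.05 there were 4 of the 8 factors, beside 15% of all genes (1943), and a voom fit on recovered reads called 0 genes and put 2060 under that unadjusted p. For 6 of the 10 factors each cKO library lay above each cHet library, and for 0 of them below. Among the 8 tested this held for 4, beside 16.9% of all genes with cKO above and 29.3% that stood apart in either direction. The median log2 difference was 0.29 over the 8 factors and −0.01 over all genes tested. The factors were chosen with earlier results of these data known. These shares and medians, and those on polysomes below, are therefore no test of the set. In bulk RNA, fewer cells of a type and less RNA per cell cannot be told apart, and the p-values measure the spread between these libraries.

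Lhx2 (ENSMUSG00000000247, mm10 chromosome 2, 38339281 to 38369733, plus strand) had 54.6, 41.9 and 50.5 FPKM in cKO input, against 25.6, 25.8 and 30.5 FPKM in cHet input. Every cKO library was above every cHet library, with a gap wider than the range within cHet. The log2 difference was 0.84 (SE 0.14, 95% interval 0.50 to 1.17, limma's adjusted p = 0.141), above that of 98.4% of the genes tested. Without cKO input replicate 3 it was 0.81 and passed (limma adjusted p = 0.0447), and in a fit over all 12 libraries it passed as well (limma adjusted p = 0.0463). Its relative Lhx9 (ENSMUSG00000019230, chromosome 1, 138825186 to 138848577, minus strand) had 21.6, 17.6 and 12.4 FPKM in cKO input, against 15.3, 14.7 and 16.7 FPKM in cHet input. The cKO libraries of Lhx9 lay on both sides of the cHet ones, with replicate 3 the lowest of all 6 (log2 0.11, SE 0.20, limma adjusted p = 0.804). Without that library the Lhx9 difference was 0.33 (limma adjusted p = 0.105). Lmx1b (ENSMUSG00000038765, chromosome 2, 33560965 to 33640511, minus strand) had 19.8, 24.7 and 27.3 FPKM in cKO input, against 25.3, 22.8 and 26.2 FPKM in cHet input. These groups overlapped (log2 −0.06, SE 0.15, 95% interval −0.41 to 0.29, limma adjusted p = 0.848), and without cKO input replicate 3 the difference was −0.16 (limma adjusted p = 0.363).

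Hand2 (ENSMUSG00000038193, chromosome 8, 57320983 to 57324633, plus strand) had 93.2, 82.8 and 109 FPKM in cKO input, against 61.6, 67.3 and 66.9 FPKM in cHet input. The groups stood apart (log2 0.53, SE 0.13, limma adjusted p = 0.170), and without cKO input replicate 3 the difference was 0.43 and passed (limma adjusted p = 0.0494). Strand use in counting is not given here, so reads of Hand2 and of its antisense neighbour Hand2os1 over the 461 exonic bases they share cannot be told apart. Hand2os1 (ENSMUSG00000100510, named AV026068 in the table) had 1.79 to 3.59 FPKM over the 12 libraries. Twist1 (ENSMUSG00000035799, chromosome 12, 33957671 to 33959829, plus strand), a dimer partner of Hand2, had 313, 267 and 363 FPKM in cKO input, against 228, 238 and 248 FPKM in cHet input. These groups did not overlap, and the closest libraries were cKO replicate 2 and cHet replicate 3 (log2 0.39, SE 0.14, limma adjusted p = 0.260). Without cKO input replicate 3 the difference of Twist1 was 0.28 and did not pass (limma adjusted p = 0.102).

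Sall1 (ENSMUSG00000031665, chromosome 8, 89027235 to 89044162, minus strand), whose human counterpart is mutated in Townes-Brocks syndrome, had 19.6, 16.3 and 14.9 FPKM in cKO input, against 9.74, 10.9 and 12.49 FPKM in cHet input. The groups did not overlap (log2 0.61, SE 0.15, limma adjusted p = 0.174), and without cKO input replicate 3 the difference of 0.69 passed (limma adjusted p = 0.0473). In those 5 libraries 3 of the 8 factors tested rose (Lhx2, Hand2 and Sall1), beside 2.54% of all genes called in either direction (326 of 12827). Leaving out any other input library gave 0 of the 8, beside 0 to 47 of all genes. Over all 12 libraries 1 of 9 tested rose (Lhx2), beside 0.602% of all genes.

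Sall4 (ENSMUSG00000027547, chromosome 2, 168748332 to 168767943, minus strand), whose human counterpart is mutated in Okihiro syndrome, had 1.36, 0.848 and 1.46 FPKM in cKO input, against 0.445, 0.475 and 0.586 FPKM in cHet input. Each cKO library was above each cHet library, and the ratio of means was 2.44. Sall3 (ENSMUSG00000024565, chromosome 18, 80966376 to 80986578, minus strand) had 0.962, 0.933 and 1.30 FPKM in cKO input, against 0.757, 0.764 and 0.765 FPKM in cHet input, and did not overlap either. Neither reached 1 FPKM in 3 of the 6 libraries, the filter on low values, so neither was among the 8 tested. With no filter the log2 difference was 1.11 for Sall4 (SE 0.27, limma adjusted p = 0.289) and 0.42 for Sall3 (SE 0.22, limma adjusted p = 0.554). An exact two-sided permutation test gave p = 0.1 for both, the smallest that 3 libraries against 3 allow. Sall4 shares 526 exonic bases with the antisense gene Gm14261, which had 0.0271 to 0.209 FPKM.

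Prrx1 (ENSMUSG00000026586, chromosome 1, 163245119 to 163313710, minus strand) had 56.0, 52.2 and 37.7 FPKM in cKO input, against 51.0, 49.6 and 53.1 FPKM in cHet input. The cKO libraries spanned the cHet range, with replicate 3 the lowest of all 6 (log2 −0.09, SE 0.16, 95% interval −0.48 to 0.29, limma adjusted p = 0.783). Without cKO input replicate 3 the difference was 0.08 (limma adjusted p = 0.465). Alx4 (ENSMUSG00000040310, chromosome 2, 93642384 to 93681339, plus strand) had 3.79, 3.52 and 7.39 FPKM in cKO input, against 4.46, 4.06 and 3.62 FPKM in cHet input. Its cKO replicate 3 stood far above the other 5 libraries, which overlapped (log2 0.19, SE 0.28, limma adjusted p = 0.737). Without that library the difference was −0.14 (limma adjusted p = 0.440).

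Markers of some other cell types also stood higher in cKO, beside the 16.9% of all genes above without overlap in input and 17.9% on polysomes. Epidermis markers summed to 341 to 373 FPKM in cKO input against 281 to 290 FPKM in cHet input, and 4 of 11 stood above without overlap and 1 below. Macrophage markers summed to 59.6 to 83.6 FPKM in cKO input against 45.7 to 52.0 FPKM in cHet input, with 9 of 10 above without overlap. On polysomes the sums were 216 to 399 FPKM in cKO against 163 to 169 FPKM in cHet for epidermis, with 7 of 11 above, and 74.9 to 104 FPKM in cKO against 57.3 to 63.8 FPKM in cHet for macrophages, with 7 of 10 above. Nerve and glia markers summed to 20.4 to 34.9 FPKM on cKO polysomes against 14.8 to 17.8 FPKM on cHet polysomes, with 5 of 7 above and 1 below, and overlapped in input. The summed levels of cartilage, endothelium, muscle and erythroid markers overlapped between genotypes in both fractions. In input, 4 of 12 cartilage, 2 of 9 endothelium and 2 of 8 muscle markers stood below without overlap, and 1 cartilage marker stood above. Beside these, 29.3% of all genes stood apart in either direction in input. All 8 erythroid genes had a log2 difference below 0 in input (median −0.45). None of these markers was at 0 in all libraries, and their part in the differences of the 10 factors was not tested.

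The comparison on polysomes asked the same of ribosome-bound RNA. Mean levels on cKO polysomes were above those on cHet polysomes by 35.5% for Sall1, 34.3% for Lhx9, 26.3% for Hand2, 52.7% for Sall3 and 133% for Sall4, and for each of these 5 of the 10 factors the groups did not overlap. For 0 of the 10 each cKO library lay below each cHet library. Among the 8 tested, 3 stood above without overlap, beside 17.9% of all genes with cKO above and 31.4% that stood apart in either direction. By limma, 0 of the 8 passed, beside 0% of all genes (0 of 12877). At an unadjusted p under 0.05 there were 2 of the 8, beside 21.3% of all genes (2743), while the voom fit called 0 genes and put 2837 under that unadjusted p. With cKO polysome replicate 1 left out it was also 0 of the 8, beside 1.26% of all genes (160). The median log2 difference was 0.30 over the 8 factors and 0.02 over all genes tested.

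Lhx2 had 59.7, 82.0 and 86.2 FPKM on cKO polysomes, against 60.8, 57.7 and 65.6 FPKM on cHet polysomes. Its cKO replicate 1 lay among the cHet libraries and the other two lay above them (log2 0.29, SE 0.18, 95% interval −0.12 to 0.70, limma adjusted p = 0.363). Without cKO polysome replicate 1 the difference was 0.46 (limma adjusted p = 0.0997). Lhx9 had 18.0, 13.8 and 14.5 FPKM on cKO polysomes, against 10.6, 11.3 and 12.6 FPKM on cHet polysomes. The groups did not overlap, unlike in input (log2 0.42, SE 0.15, limma adjusted p = 0.182). Lmx1b had 21.9, 29.5 and 20.4 FPKM on cKO polysomes, against 29.4, 23.3 and 36.7 FPKM on cHet polysomes. It varied widely within both groups, which overlapped (log2 −0.31, SE 0.21, limma adjusted p = 0.411).

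Hand2 had 141, 145 and 191 FPKM on cKO polysomes, against 128, 122 and 128 FPKM on cHet polysomes. The groups did not overlap, and cKO replicate 3 was the highest library (log2 0.32, SE 0.17, limma adjusted p = 0.295). Twist1 had 375, 531 and 632 FPKM on cKO polysomes, against 467, 487 and 487 FPKM on cHet polysomes. Its cKO libraries lay on both sides of the tight cHet group (log2 0.06, SE 0.21, 95% interval −0.42 to 0.54, limma adjusted p = 0.879). Without cKO polysome replicate 1 the Twist1 difference was 0.27, and without cKO polysome replicate 3 it was −0.11 (limma adjusted p = 0.310 and 0.721).

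Sall1 had 14.6, 13.4 and 11.5 FPKM on cKO polysomes, against 8.10, 10.8 and 10.3 FPKM on cHet polysomes, with no overlap (log2 0.44, SE 0.16, limma adjusted p = 0.184). Sall4 had 1.19, 0.851 and 1.19 FPKM on cKO polysomes, against 0.484, 0.353 and 0.548 FPKM on cHet polysomes, a ratio of means of 2.33. Sall3 had 0.812, 0.929 and 0.601 FPKM on cKO polysomes, against 0.523, 0.419 and 0.591 FPKM on cHet polysomes. Both stood apart, Sall3 narrowly. With no filter the log2 difference was 1.07 for Sall4 (SE 0.26, limma adjusted p = 0.229) and 0.52 for Sall3 (SE 0.26, limma adjusted p = 0.425). Prrx1 had 55.9, 49.5 and 50.5 FPKM on cKO polysomes, against 53.3, 50.7 and 53.5 FPKM on cHet polysomes. Its 6 libraries overlapped closely (log2 −0.02, SE 0.14, limma adjusted p = 0.958). Alx4 had 3.38, 2.29 and 3.37 FPKM on cKO polysomes, against 2.42, 2.48 and 2.26 FPKM on cHet polysomes, with cKO replicate 2 among the cHet libraries (log2 0.31, SE 0.18, limma adjusted p = 0.345).

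**Figure D2:**
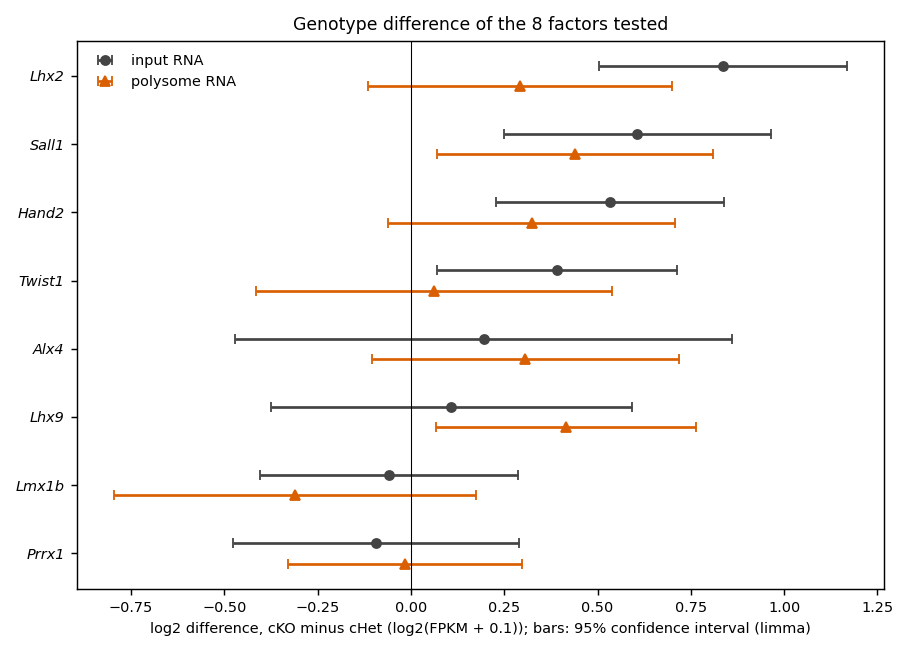
Log2 difference of cKO minus cHet (horizontal axis) with its 95% confidence interval for the 8 factors tested, in input RNA (grey circles, upper of each pair) and on polysomes (orange triangles). The input intervals of Lhx2, Sall1, Hand2 and Twist1 lie above 0 before adjustment over all genes, as do the polysome intervals of Sall1 and Lhx9.

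Polysome RNA was then compared with input RNA within each genotype. The deposited FPKM are scaled so that the median gene is level across libraries. This asks which mRNAs were higher or lower on polysomes than in input, relative to the median gene. A ratio of 1 is therefore not an equal share of the RNA. In both genotypes Lhx2, Hand2 and Twist1 were higher on polysomes, at 1.59 to 2.25 times their input level as means of the lysate ratios. The other 7 factors had mean ratios from 0.592 to 1.20. In cHet, 4 of the 9 factors tested changed by limma, 3 higher and 1 lower, beside 53.2% of all genes (27.3% higher and 25.9% lower). In cKO, 3 of 9 changed, all higher, beside 32.5% of all genes (16.9% higher and 15.6% lower). At an unadjusted p under 0.05 there were 5 of 9 in cKO, beside 44% of all genes, and 5 of 9 in cHet, beside 59.4%. Sall4 was tested here with the 12 libraries only because 4 cKO libraries reached 1 FPKM, and Sall3 was not tested.

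Lhx2 on polysomes averaged 76.0 ± 14.3 FPKM in cKO, against 49.0 ± 6.47 FPKM in cKO input (SD, n = 3 each). In cHet it averaged 61.4 ± 3.97 FPKM on polysomes, against 27.3 ± 2.77 FPKM in input. Its polysome to input ratio was 1.09, 1.96 and 1.71 in cKO lysates 1 to 3, against 2.37, 2.23 and 2.15 in cHet lysates. Lysate 1 of cKO, which holds the polysome library that stood apart, was close to 1 and every other lysate was at 1.71 or above. The log2 difference of polysome minus input was 0.62 in cKO (SE 0.16, limma adjusted p = 0.0134) and 1.17 in cHet (SE 0.16, limma adjusted p = 2.3e-04).

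Hand2 on polysomes averaged 159 ± 27.7 FPKM in cKO, against 94.96 ± 13.15 FPKM in cKO input, and 126 ± 3.53 FPKM in cHet, against 65.3 ± 3.21 FPKM in cHet input (SD, n = 3 each). Its ratio was 1.51, 1.76 and 1.75 in cKO lysates and 2.08, 1.81 and 1.92 in cHet lysates, so that all 6 lysates lay above 1. The log2 difference was 0.74 in cKO (SE 0.15, limma adjusted p = 0.00362) and 0.95 in cHet (SE 0.15, limma adjusted p = 3.8e-04). Twist1 on polysomes averaged 513 ± 130 FPKM in cKO, against 314 ± 48.3 FPKM in cKO input, and 481 ± 11.7 FPKM in cHet, against 238 ± 9.96 FPKM in cHet input. Its ratio was 1.20, 1.99 and 1.74 in cKO lysates and 2.05, 2.05 and 1.96 in cHet lysates. The cHet lysates agreed closely and cKO lysate 1 was again the lowest. The log2 difference was 0.68 in cKO (SE 0.18, limma adjusted p = 0.0132) and 1.01 in cHet (SE 0.18, limma adjusted p = 7.7e-04).

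Alx4 had the lowest mean ratio in both genotypes, with single values of 0.891, 0.652 and 0.456 in cKO lysates and 0.542, 0.611 and 0.625 in cHet lysates. It fell in cHet (log2 −0.73, SE 0.25, limma adjusted p = 0.0254), and the cKO difference of −0.62 did not pass (SE 0.25, limma adjusted p = 0.0722). The cKO difference passed with lysates matched as a replicate block (limma adjusted p = 0.0375). It also passed with protein-coding scaling (−0.75, limma adjusted p = 0.0304) and without cKO input replicate 2 (limma adjusted p = 0.0416). Without cKO input replicate 3, where Alx4 was highest, the cKO difference was −0.29 (limma adjusted p = 0.179). The cHet call on Alx4 was lost without cHet input replicate 1 or 2 or without any cHet polysome library, at limma adjusted p from 0.0514 to 0.0820. Lhx9 had ratios of 0.835, 0.782 and 1.18 in cKO lysates and 0.693, 0.769 and 0.754 in cHet lysates. Its log2 difference was −0.13 in cKO (limma adjusted p = 0.637) and −0.43 in cHet (limma adjusted p = 0.0685). The cHet difference passed with lysates as a replicate block (limma adjusted p = 0.0341) and with protein-coding scaling (−0.66, limma adjusted p = 0.0252). It also passed without cKO input replicate 1 or 3 (limma adjusted p = 0.0409 and 0.0127), beside 7322 of 13545 and 8814 of 13529 genes. The difference stayed at −0.43 in both, with SE 0.16 and 0.13 against 0.19, since the fit shares its estimate of the spread across genotypes. The Lhx9 difference in cKO was −0.34 without cKO input replicate 3 (limma adjusted p = 0.0774). With that block 4 of 9 factors were called in cKO, beside 32.9% of all genes, and 5 of 9 in cHet, beside 54.6%.

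For Sall1 the log2 difference was −0.35 in cKO and −0.19 in cHet (limma adjusted p = 0.113 and 0.351), with all 6 ratios below 1. For Prrx1 it was 0.11 in cKO and 0.04 in cHet (limma adjusted p = 0.586 and 0.851), and the cHet lysates had ratios of 1.05, 1.02 and 1.01. Its sign turned under other scalings, to −0.02 in cKO and −0.19 in cHet with protein-coding scaling, and it was −0.06 in cKO without cKO input replicate 3. For Lmx1b the differences were −0.01 in cKO and 0.25 in cHet, and for Sall4 −0.15 in cKO and −0.11 in cHet, and none of these passed. Sall3 had ratios of 0.843, 0.996 and 0.461 in cKO lysates and 0.692, 0.548 and 0.773 in cHet lysates, all below 1.

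In cKO the calls on Lhx2 and Twist1 were lost without some single libraries, at log2 0.51 to 0.57 and limma adjusted p from 0.0517 to 0.0598. Without cKO polysome replicate 3 only Hand2 was called, beside 18% of all genes. Without cKO polysome replicate 2 Hand2 and Twist1 were called, beside 3104 of 13557 genes. Without cKO input replicate 2 the calls were Hand2 higher and Alx4 lower, beside 3247 of 13552 genes. Without cKO polysome replicate 1 or cKO input replicate 3, the libraries that stood apart, Lhx2, Hand2 and Twist1 all remained called, beside 44.4% and 42.6% of all genes. Hand2 was called in cKO and in cHet without any 1 of the 12 libraries. With protein-coding scaling the split over all genes moved to 1684 higher and 2672 lower in cKO, against 2306 and 2118 as deposited, and to 2480 higher and 4534 lower in cHet, against 3717 and 3525. The median over all genes moved to −0.06 in cKO, where it was 0.06, and to −0.20 in cHet, where it was 0.02, and Lhx2, Hand2 and Twist1 remained higher in both. That scaling also called Alx4 lower in cKO and Lhx9 lower in cHet.

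**Figure D3:**
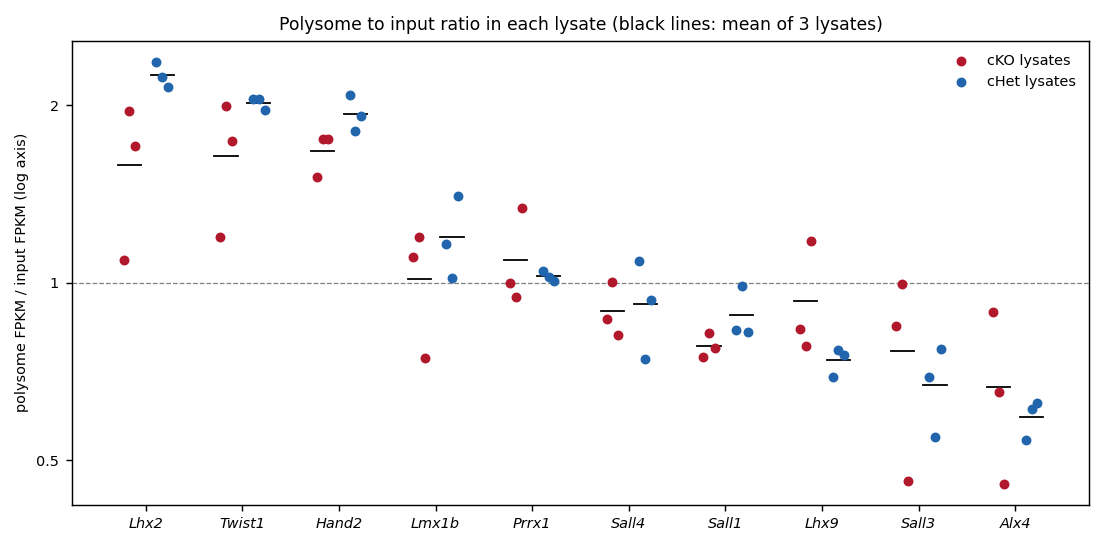
Polysome FPKM divided by input FPKM of the same lysate (vertical log axis) for each of the 10 factors, with 3 cKO lysates in red left of 3 cHet lysates in blue and black lines for the means. Lhx2, Twist1 and Hand2 lie above 1 in all lysates, with cHet means of 2.25, 2.02 and 1.94, and Alx4 has the lowest means.

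Whether the ratio itself differed between genotypes was tested as the interaction over the 12 libraries. By limma, 0 of 9 factors passed, beside 0% of all genes (0 of 13610). At an unadjusted p under 0.05 there was 1 of the 9, Lhx2, beside 4.69% of all genes (638), while the voom fit called 0 genes and put 701 under that unadjusted p. The Lhx2 ratio averaged 1.59 ± 0.444 in cKO lysates, against 2.25 ± 0.113 in cHet lysates (SD, n = 3 each). Every cKO lysate was below every cHet lysate (log2 difference of the ratios −0.54, SE 0.23, 95% interval −1.05 to −0.04, limma adjusted p = 0.790). The ratio of Hand2 averaged 1.67 ± 0.139 in cKO and 1.94 ± 0.135 in cHet, also without overlap (log2 −0.21, SE 0.21, 95% interval −0.66 to 0.24, limma adjusted p = 0.794). That of Twist1 averaged 1.64 ± 0.406 in cKO and 2.02 ± 0.0490 in cHet, with cKO lysate 2 among the cHet lysates (log2 −0.33, SE 0.25, 95% interval −0.88 to 0.22). Without cKO polysome replicate 1 these differences were −0.38 for Lhx2, −0.13 for Hand2 and −0.12 for Twist1, and without cKO input replicate 3 they were −0.52, −0.11 and −0.22 for the same genes. These intervals do not settle whether the ratios of Hand2 and Twist1 differ by genotype. The lysate ratios of Lhx9 also stood apart, but with cKO above (0.782 or more, against 0.769 or less in cHet). Those of Sall1 stood apart narrowly with cKO below (0.823 or less, against 0.825 or more in cHet). How many of all genes have lysate ratios that stand apart was not counted. The remaining log2 differences were 0.31 for Lhx9, 0.11 for Alx4, 0.08 for Prrx1, −0.04 for Sall4, −0.17 for Sall1 and −0.25 for Lmx1b. With cKO input replicate 3 left out they were 0.09 for Lhx9, 0.44 for Alx4, −0.10 for Prrx1, 0.09 for Sall4, −0.25 for Sall1 and −0.15 for Lmx1b.

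The 3 factors with high ratios share features of their mRNAs that were not used to choose them. In the longest GENCODE M21 transcript of each gene, Twist1 has 1628 bases, Hand2 2351 and Lhx2 2840, and these are the shortest of the 10. The others have 4790 (Lmx1b) to 7079 bases (Sall3), against a median of 2684 over 21830 protein-coding genes. Their 3′ untranslated regions have 703, 776 and 607 bases, against 1146 (Sall1) to 5810 bases (Alx4) for the others. Their GC content of 58.5% to 59.3% is the highest of the 10, followed by Lmx1b at 57.9%, and lies above that of 91.7% of protein-coding genes or more. The coding parts are short too in Twist1 and Hand2, with 618 and 651 bases, but so is that of Prrx1 with 600. These are descriptions of 10 points that share libraries, and length and GC content cannot be told apart here.

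**Figure D4:**
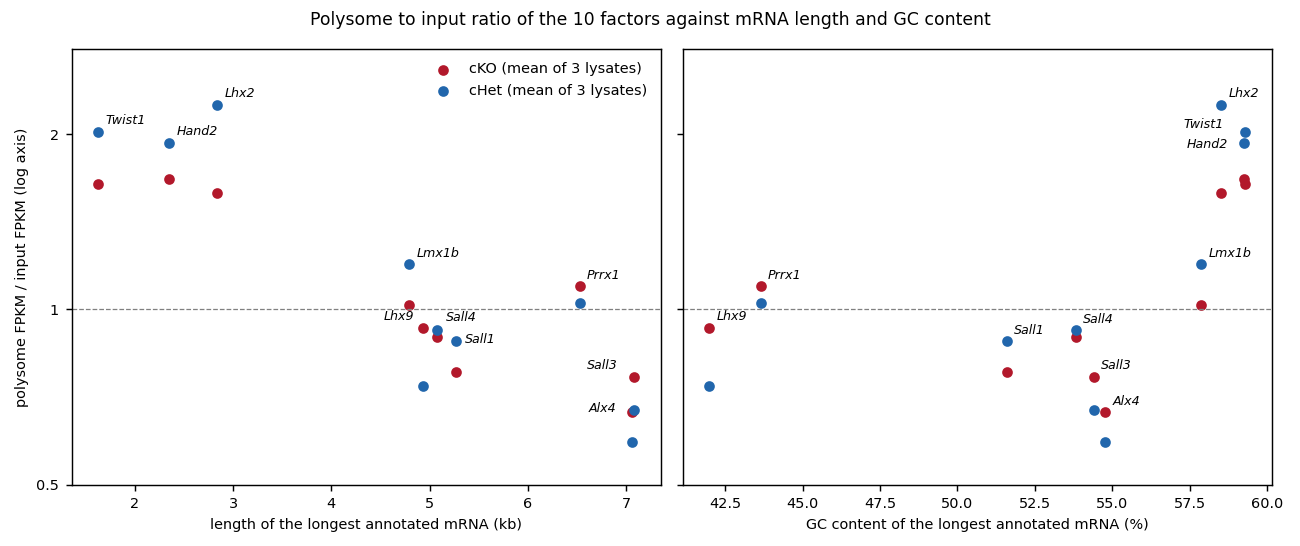
Polysome to input ratio (vertical log axis, mean of 3 lysates, cKO in red and cHet in blue) against mRNA length in kb (left) and GC content in percent (right) of the longest transcript of each factor. Twist1, Hand2 and Lhx2 are the shortest and the richest in GC and have the highest ratios, while Alx4 and Sall3, both over 7 kb, have the lowest cHet ratios.

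GGACT, a frequent form of the m6A consensus, was counted on the mRNA strand of the same transcripts. Hand2 had 5 copies, 2.13 per kb, which is more than in 90.2% of protein-coding genes, and 2 of them lie in its 3′ untranslated region. Alx4 had 1.42, Lhx2 1.41, Sall1 1.33, Twist1 1.23, Prrx1 1.23 and Sall3 1.13 per kb, all above the median of 1.01. Sall4 had 0.986, Lmx1b 0.835 and Lhx9 0.810 per kb, all below it. At least 1 copy is in 87.7% of all protein-coding transcripts, so its presence does not set the 10 factors apart, and no methylation was measured in these libraries.

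Likeness of profile was measured as the root mean square difference between 2 genes in log2(FPKM + 0.1), each centred on its mean over the 12 libraries, so that 0 is an identical profile. Between the factors, Hand2 and Twist1 were closest at 0.146, followed by Hand2 and Lhx2 at 0.168, Lhx2 and Twist1 at 0.204, and Lhx9 and Sall1 at 0.227. Alx4 and Lhx2 were the least alike at 0.882. Over 11897 protein-coding genes, those most like Lhx2 were Exo5 and Lysmd2 at 0.138 and Arf6 at 0.145. The closest gene was Pym1 for Hand2 (0.0678), Cnih4 for Twist1 (0.0711), Rin2 for Prrx1 (0.0390) and Mecom for Lhx9 (0.0981). It was Sh3glb2 for Lmx1b (0.0945), Slc30a1 for Sall1 (0.132), Fbxo42 for Sall3 (0.122), Pramef8 for Sall4 (0.164) and Pomt1 for Alx4 (0.140). Each factor had a gene outside the 10 closer to it than any of the other factors.

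**Figure D5:**
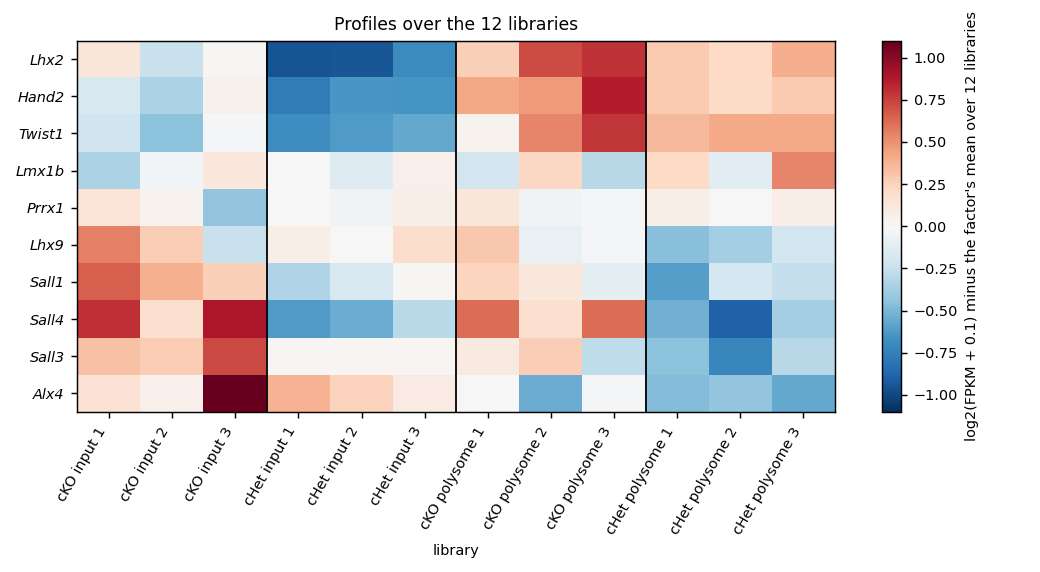
Level of each factor in each library as log2(FPKM + 0.1) minus its mean over the 12 libraries (colour, blue below the mean and red above it), with libraries as columns and groups divided by black lines. Lhx2, Hand2 and Twist1 are lowest in the 3 cHet input libraries, Prrx1 departs from its mean chiefly in cKO input replicate 3, and Alx4 is highest in that same library.

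Genes that act with these factors were counted from lists of the same pathways. In cKO against cHet input, and in the same comparison on polysomes, 0 genes of any list passed limma's threshold. Of 7 paralogs tested in input, 3 had a log2 difference above 0 and 4 below (median −0.10). Prrx2, the relative of Prrx1, averaged 199 ± 33.9 FPKM in cKO and 126 ± 17.3 FPKM in cHet input (SD, n = 3 each; log2 0.65, limma adjusted p = 0.178), while Hand1, the relative of Hand2, averaged 1.22 ± 0.321 FPKM in cKO and 2.12 ± 0.543 FPKM in cHet input (log2 −0.74, limma adjusted p = 0.269). Of 14 cofactors tested, among them the LIM-domain partners Ldb1 and Lmo4 and the helix-loop-helix inhibitors Id1 to Id4, 7 were above 0 and 7 below (median 0.05). Lmo4 averaged 52.9 ± 5.92 FPKM in cKO and 41.9 ± 2.59 FPKM in cHet input.

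Of 21 genes of the anterior-posterior axis tested in input, 12 were above 0 and 9 below (median 0.21). Msx2, a homeobox gene downstream of BMP signals, had 61.4, 43.4 and 53.1 FPKM in cKO input, against 22.3, 22.6 and 26.8 FPKM in cHet input. Its groups stood far apart (log2 1.13, SE 0.16, limma adjusted p = 0.141). Hoxd13, a gene of digit formation, averaged 390 ± 39.0 FPKM in cKO and 244 ± 40.2 FPKM in cHet input (log2 0.68, limma adjusted p = 0.157). Of 17 genes of the ridge and of FGF signalling, 12 were above 0 and 5 below (median 0.15). Dusp6, which FGF signals induce, averaged 42.1 ± 5.37 FPKM in cKO and 30.4 ± 1.73 FPKM in cHet input (log2 0.46, limma adjusted p = 0.202).

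Of 7 genes of the dorsal-ventral axis, 3 were above 0 and 4 below in input, with a median of −0.81, and on polysomes the median was 0.12. Kera, for the proteoglycan keratocan, had 9.13, 16.9 and 3.39 FPKM in cKO input, against 19.98, 23.9 and 21.8 FPKM in cHet input. All 3 cKO libraries were below the cHet ones, with replicate 3 the lowest (log2 −1.42, SE 0.51, limma adjusted p = 0.272). Dcn, for the proteoglycan decorin, averaged 6.34 ± 2.78 FPKM in cKO and 11.7 ± 1.19 FPKM in cHet input (log2 −0.96, limma adjusted p = 0.238). Fzd7 went the other way, with 29.2 ± 4.57 FPKM in cKO and 21.8 ± 1.30 FPKM in cHet input (log2 0.41, limma adjusted p = 0.263). Of the 7 genes, 4 stood below without overlap in input and 1 above (Fzd7), beside 29.3% of all genes apart in either direction. On polysomes against input, 3 of the 14 cofactors were higher in cKO, beside 16.9% of all genes, and 7 in cHet, beside 27.3%, and 0 were lower in either. Id2 led them, with a log2 difference of 0.86 in cKO (limma adjusted p = 0.00154) and 1.12 in cHet (limma adjusted p = 1.58e-04). Of 954 transcription factor genes tested, 73 were higher and 112 lower on polysomes in cKO, beside 16.9% and 15.6% of all genes. In cHet 168 were higher and 177 lower, beside 27.3% and 25.9%. Each of these shares of transcription factor genes was below the share of all genes beside it.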

How the data were processed

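RNA of mouse limb buds was sequenced in 12 libraries. Reads were aligned with HISAT2 2.0.5 to mm10 and counted with featureCounts 1.5.0-p3, per the submitters' processing notes. FPKM values were deposited by the authors for 54532 genes, with their lengths. Library type and strandedness are not given in the sources used here. FPKM times gene length was a whole number of reads (to 0.01) in 100% of values above 0, which gave the depth. Median-ratio factors of the deposited values were equal in all libraries (1.021), so that scaling is already in them.

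Fits used limma 3.58.1 with an intensity trend in R 4.3.3 on log2(FPKM + 0.1), a scale that understates changes of low genes. Genes reaching 1 FPKM in at least 3 fitted libraries were tested, two-sided, with Benjamini-Hochberg adjustment over all of them, at 0.05. The genotypes were compared on 6 libraries per fraction, and polysome against input and the interaction on all 12. Input and polysome libraries of the same genotype and number were read as 1 lysate, from the design (Pearson r of deviations 0.0525 to 0.249 across genes). Alternatives were other pseudocounts, filters and scalings, voom, robust empirical Bayes, another threshold, blocks, the fit over all libraries and leaving out each library. Transcripts came from GENCODE M21 (it held 54409 of the genes, 98.3% at identical coordinates) and promoters from RefSeq.

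All 10 factors are named; of each other list, up to 3 genes with the smallest p; and for likeness 3 genes for Lhx2 and 1 for each other factor. Genes named inside a list's description as background carry no value. The factors and lists were chosen with earlier results of these data known.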

Additional observations from a re-analysis of the deposited data

How the results depend on the processing

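Over 1001 values of single genes under the alternatives, 938 kept their direction and their side of the threshold, 14 passed it only under an alternative, 14 lost it and 35 reversed. The reversals came in 16 of 48 results, none of them past the threshold (limma adjusted p of 0.273 or more). The number of factors called in input was 0 as reported, beside 0% of all genes, and 1 in the fit over all 12 libraries, beside 0.602%. It was 0 to 3 when a library was left out, beside 0% to 2.54% of all genes. On polysomes against input in cKO the number was 3, beside 32.5% of all genes. It was 1 to 3 when a library was left out, beside 18% to 44.4% of all genes. The other counts stayed within 1.5 times under all alternatives.

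Without the filter, Alx4 in cHet (limma adjusted p = 0.0645) and Twist1 in cKO (0.0513) lost their calls on polysomes against input, and with quantile normalization Alx4 in cHet (0.0786) and Lhx2 in cKO (0.0901). The cause was not tested. Log2 values that reversed were, for Prrx1, 0.030 with protein-coding scaling (cKO against cHet polysomes), −0.29 with quantile normalization and −0.19 with protein-coding scaling (polysome against input, cHet) and −0.15 and −0.016 (the same in cKO). Sall4 gave 0.14 with quantile normalization (polysome against input, cHet) and 0.026 with protein-coding scaling (interaction), Lmx1b 0.037 with voom (polysome against input, cKO) and Mettl14 0.027 with protein-coding scaling (cKO against cHet polysomes).

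With 1 library left out, the lowest and highest log2 values of results that reversed were, in input, −0.073 to 0.33 for Lhx9, −0.16 to 0.070 for Lmx1b, −0.21 to 0.080 for Prrx1 and −0.14 to 0.39 for Alx4. On polysomes they were −0.070 to 0.018 for Prrx1, −0.11 to 0.27 for Twist1 and −0.097 to 0.032 for Mettl14. For polysome against input they were −0.22 to 0.038 for Sall4 in cHet, and −0.34 to 0.055 for Lhx9, −0.17 to 0.10 for Lmx1b, −0.060 to 0.23 for Prrx1 and −0.0017 to 0.66 for Mettl14 in cKO. For the interaction they were −0.27 to 0.10 for Sall4, −0.095 to 0.19 for Prrx1 and −0.080 to 0.44 for Alx4.

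With the lysate as a replicate block, 5 factors were called in cHet and 4 in cKO, beside 54.6% and 32.9% of all genes, and no call was lost. Replicate numbers shared across genotypes pair only a number (r −0.281 to 0.165), and with them as a replicate block 0 factors were called in input and 0 on polysomes, beside 0 and 42 genes. Few reads limit Sall3 and Sall4, and 3 libraries a group limit the other factors.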

Other observations

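Within a library, the factors can be set against Prrx1, whose mean level differed little between groups, a choice made after seeing the data. In input RNA, Lhx2 stood at 97.4%, 80.3% and 134% of the Prrx1 level in cKO, against 50.3%, 52.2% and 57.5% in cHet. Hand2 stood at 166%, 159% and 289% in cKO, against 121%, 136% and 126% in cHet, and Sall1 at 34.9%, 31.2% and 39.5% in cKO, against 19.1%, 22.1% and 23.5% in cHet. Lhx9 stood at 38.5%, 33.8% and 32.8% in cKO, against 30.0%, 29.6% and 31.5% in cHet, so that its groups did not overlap on this scale, while they did in FPKM. Prrx1 itself was lowest in cKO input replicate 3, where these percentages are highest for Lhx2, Hand2 and Sall1. Lhx9 was also lowest in that library in FPKM, and dividing by the low Prrx1 value there places it just above the cHet range. How many of all genes stand apart on this scale was not counted. On polysomes the groups of Lhx2, Twist1, Lmx1b and Alx4 overlapped on this scale.

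The ratio of Lhx2 to its relative Lhx9 was 2.53, 2.38 and 4.09 in cKO input, against 1.68, 1.76 and 1.83 in cHet input, with no overlap. On polysomes it was 3.32, 5.95 and 5.94 in cKO, against 5.73, 5.11 and 5.21 in cHet, where the groups overlapped and cKO replicate 1 was the lowest. The ratio of Hand2 to Alx4, factors of the posterior and the anterior limb bud, was 24.6, 23.5 and 14.7 in cKO input, against 13.8, 16.6 and 18.5 in cHet input, and these groups overlapped. None of these ratios was tested.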
